A study of Callithrix jacchus with 6 samples.

Results

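Inflammasome and NF-kB signalling was followed through 6 genes, NLRP3, IL1B, IL18, TNF, NFKB1 and RELB, picked by name from the 29320 features of a single-cell RNA data set of the hippocampus of aged common marmosets (Callithrix jacchus, a small New World monkey). Each symbol matched 1 feature: NLRP3 (ENSCJAG00000011813), IL1B (ENSCJAG00000016340), IL18 (ENSCJAG00000012499), TNF (ENSCJAG00000040100), NFKB1 (ENSCJAG00000015382) and RELB (ENSCJAG00000012991). The animals received either oxygen alone, the control, or sevoflurane, an inhaled anaesthetic, for 6 h, and each treatment gave 3 libraries. Hippocampi were digested with collagenase, and the suspensions were frozen and thawed before 10x Genomics 3' v3.1 library preparation. Whether the 3 libraries of a treatment stem from different animals is not stated in the labels, and the p-values below describe the spread between these libraries, which may be technical.

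NLRP3 is the sensor of the best studied inflammasome, a complex of the cytosol in which caspase-1 is switched on and then cuts the precursors of the cytokines IL-1 beta (IL1B) and IL-18 (IL18) to their active forms. Transcription of NLRP3 and IL1B is primed by NF-kB, a family of dimeric transcription factors. NFKB1 encodes the p105 precursor of the p50 subunit of its classical arm, RELB the transactivating subunit of its alternative arm, and TNF a cytokine that both activates NF-kB and is made under its control. In the brain the sensor and these cytokines are best known from microglia, while NF-kB subunits are found in most cell types.

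The 6 libraries held 7103 to 8577 cell barcodes with 41164947 to 47886816 unique molecular identifiers (UMIs, counts of single RNA molecules), and 44344 of 46582 barcodes were kept after doublet removal. Any 2 libraries had 13 to 27 barcodes in common, at most 0.328% of the smaller one. Clusters were named from marker genes as "-like" classes. Treatments were compared in microglia-like (1837 cells), endothelial-like (744), astrocyte-like (4897), GABAergic neuron-like (3766) and glutamatergic neuron-like cells (17890). Border macrophage-like (54), mural-like (125) and fibroblast-like cells (434) fell under 20 cells in at least 1 library and are given as values. Sevoflurane replicate 3 had a different set of neurons. It held 1137 cells in each of the glutamatergic clusters 24 and 25, and the results on neurons that it moved are also given without it. Levels are UMIs of a gene per 1000000 UMIs of its class in a library (CPM), errors of levels are SD (n = 3 libraries), and errors of log2 fold changes (sevoflurane over oxygen) are standard errors.

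About equal parts of the NLRP3 and IL18 UMIs lay in microglia-like cells and in all other cells together, and UMIs of NFKB1 and RELB were found in every class. Over all cells the members had 1111 (NLRP3), 44 (IL1B), 278 (IL18), 11 (TNF), 24336 (NFKB1) and 2910 UMIs (RELB). Microglia-like cells made up 4.14% of the cells and held 49.2% of the NLRP3 UMIs and 47.5% of the IL18 UMIs. In contrast they held 1.796% of the NFKB1 UMIs and 3.02% of the RELB UMIs. No member passed the test between treatments in any of the 5 classes (edgeR quasi-likelihood test, Benjamini-Hochberg adjusted p under 0.05 over all genes of the class). In microglia-like cells 4 members could be fitted and 0 were called, where 8 of 7601 genes were called (0.105%). The counts were 0 of 2 members in endothelial-like cells (0.0% of 6588 genes called), 0 of 2 in astrocyte-like cells (0.018% of 11113), 0 of 2 in GABAergic neuron-like cells (0.122% of 13153) and 0 of 3 in glutamatergic neuron-like cells (0.00576% of 17353). DESeq2 also called 0 members in each class, with 0.289%, 0.0152%, 0.333%, 1.54% and 1.13% of all genes called in the same order of classes. At an unadjusted p under 0.05, edgeR gave NLRP3 in glutamatergic neuron-like cells, and no other member in any class. Of all genes, 6.6%, 4.66%, 6.73%, 11.5% and 7.64% met this limit.

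**Figure D1:**
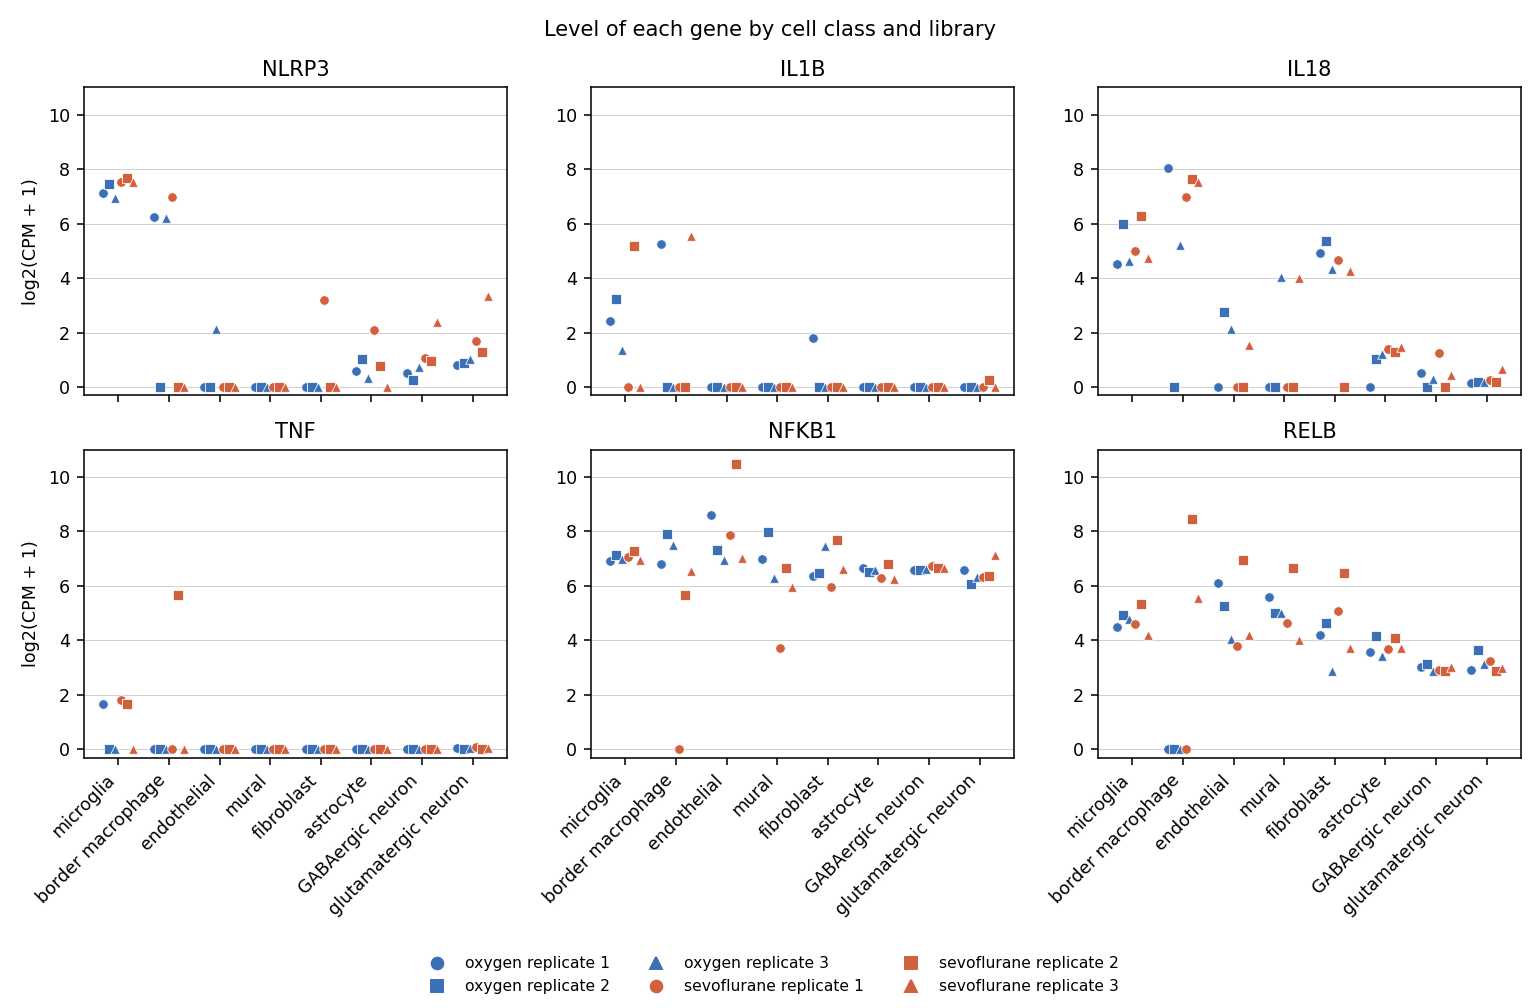
Level of each of the 6 genes as log2(CPM + 1) (y axis) in 8 cell classes (x axis); each point is 1 library, blue for oxygen and orange for sevoflurane, with the symbol giving the replicate. NLRP3 is at 122 to 203 CPM in the microglia libraries and reaches 125 CPM in border macrophages, so these ranges overlap. IL18 reaches 77.1 CPM in microglia and 260 CPM in border macrophages. NFKB1 lies between 66.8 and 154 CPM in the libraries of microglia, astrocytes and neurons, and sevoflurane replicate 2 is the highest endothelial library for NFKB1 and RELB.

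The sensor NLRP3 was at 139, 173 and 122 CPM in microglia-like cells of oxygen replicates 1 to 3 and at 181, 203 and 181 CPM in those of sevoflurane replicates 1 to 3. Every sevoflurane library lay above every oxygen library, as was the case for 5.0% of the 7601 genes tested in this class. The mean was 145 ± 25.6 CPM with oxygen and 188 ± 12.2 CPM with sevoflurane, a log2 fold change of 0.40 ± 0.19 that did not pass the test (edgeR unadjusted p = 0.0633, adjusted p = 0.785). DESeq2 gave log2 0.41 ± 0.28 and an adjusted p of 0.999. Leaving out 1 library at a time gave log2 values from 0.29 to 0.55. Summed markers of microglia were at 8353 to 9061 CPM with oxygen and 8180 to 10047 CPM with sevoflurane. The 11 lymphocyte markers, of which CD3E, PRF1, GNLY and MS4A1 were at 0, summed to 65.9 to 87.1 CPM with oxygen and 137 to 227 CPM with sevoflurane. Border macrophage markers summed to 634 to 794 and 559 to 616 CPM, with CD163 and CD163L1 at 0. The part of these other markers in the NLRP3 result was not tested.

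The share of microglia-like cells with an NLRP3 UMI was compared after cells had been thinned to 1000 UMIs, so that those compared had the same depth. Cells with fewer UMIs were left out, 26 with oxygen and 63 with sevoflurane. It was 14.2%, 15.1% and 13.6% in the oxygen libraries and 17.1%, 18.8% and 18.6% in the sevoflurane libraries. The groups again did not overlap, with means of 14.3 ± 0.757% and 18.2 ± 0.899% and a difference of 3.86 points. The permutation test was exact and two-sided and gave p = 0.1, below which 6 libraries in equal groups cannot go, and 0.433 after adjustment over the 13 member and class pairs tested this way. Thinned to 500 UMIs the difference was 0.914 points (exact permutation p = 0.7). Before thinning 25.04% of these cells carried an NLRP3 UMI at a median depth of 1698 UMIs, against 0.103% of OPC-like cells, precursors of oligodendrocytes, at a median depth of 2715 UMIs.

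Among the other classes, mean NLRP3 stood at 2.57 CPM in glutamatergic neuron-like cells and at 1.35 CPM or less in oligodendrocyte-like, GABAergic neuron-like, astrocyte-like, endothelial-like and OPC-like cells. The microglia-like range of 122 to 203 CPM lay apart from all of these, and their own ranges overlapped one with the next. Border macrophage-like cells, the macrophages of vessels and meninges, had 2, 0 and 2 NLRP3 UMIs in the oxygen libraries and 3, 0 and 0 in the sevoflurane libraries. With 3 to 12 such cells per library, these counts allow no comparison. Mural-like cells, the contractile cells of the vessel wall, had 0 NLRP3 UMIs in 125 cells, which allows a share of cells with a UMI of up to 2.40%. Endothelial-like cells had 2 NLRP3 UMIs, both in 1 cell of oxygen replicate 3.

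NLRP3 in glutamatergic neuron-like cells was low and did not pass the test between treatments. There were 21, 20 and 24 UMIs in the oxygen libraries (0.748, 0.852 and 1.03 CPM) and 68, 43 and 192 UMIs in the sevoflurane libraries (2.22, 1.47 and 9.13 CPM). Each sevoflurane library was above each oxygen library, which held for 12.9% of the genes in this class, and sevoflurane replicate 3 was far above the other 5. The log2 fold change of 2.16 ± 0.72 did not pass the edgeR test (unadjusted p = 0.0217, adjusted p = 0.587) or DESeq2 (unadjusted p = 0.00246, adjusted p = 0.119). Without sevoflurane replicate 3 it was 0.98 (edgeR adjusted p = 0.331), and without any other single library 2.05 to 2.58. The unadjusted edgeR p was 0.0510 to 0.0687 when 1 of the oxygen libraries was left out. After thinning to 1000 UMIs the shares were 0.0907%, 0.0438% and 0.0381% with oxygen and 0.254%, 0.183% and 0.747% with sevoflurane (exact permutation p = 0.1, adjusted 0.433). The difference of 0.337 points became 0.161 points without sevoflurane replicate 3. OPC-like cells thinned in the same way were at 0 in 5 libraries and at 0.329% in sevoflurane replicate 2. That value is a single cell, so these libraries hold too few OPC-like cells to give a background for shares this low.

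The neuron clusters of that class were of different sizes in the libraries, so NLRP3 was also read cluster by cluster, in libraries with at least 20 cells of the cluster. The sevoflurane mean was above the oxygen mean in 7 of 9 glutamatergic clusters and in 4 of 4 GABAergic clusters. The share of other genes with this pattern was not computed, and several clusters had few UMIs. The GABAergic clusters 3, 5 and 6 had 2, 1 and 1 UMIs with oxygen and 3, 4 and 10 with sevoflurane, and their ranges overlapped. Cluster 19 counted as higher by its mean with 8 UMIs in 3 oxygen libraries and 1 UMI in 2 sevoflurane libraries. Clusters 24 and 25 had 1 oxygen library each. It was not higher in cluster 9 (0.611 to 2.04 CPM with oxygen, 1.19 and 1.81 CPM with sevoflurane) or in cluster 21, where no library had a UMI. Cluster 24, led by CUX2 and RGS6, had 1.70 CPM in oxygen replicate 1, 10.3 CPM in sevoflurane replicate 1 (4 UMIs) and 15.6 CPM in sevoflurane replicate 3 (157 UMIs in 132 of 1137 cells, at most 3 in a cell). This cluster alone held 157 of the 192 UMIs of that library. Summed markers of microglia in cluster 24 were at 87.8, 69.6 and 142 CPM in these 3 libraries, within the 36.0 to 579 CPM of the neuron clusters.

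GABAergic neuron-like cells had 2, 1 and 3 NLRP3 UMIs with oxygen and 4, 3 and 23 with sevoflurane (0.427 ± 0.232 against 2.09 ± 1.83 CPM). The groups did not overlap here either, which was so for 12.9% of the genes tested in this class, and the exact permutation p was 0.1 (adjusted 0.267 over 8 pairs below the filter on low counts). The difference of 1.66 CPM became 0.604 CPM without sevoflurane replicate 3. Summed over all glutamatergic neuron-like cells, the markers of microglia were at 153 to 186 CPM with oxygen and 184 to 274 CPM with sevoflurane, highest in sevoflurane replicate 1, and their part in these counts was not tested.

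**Figure D2:**
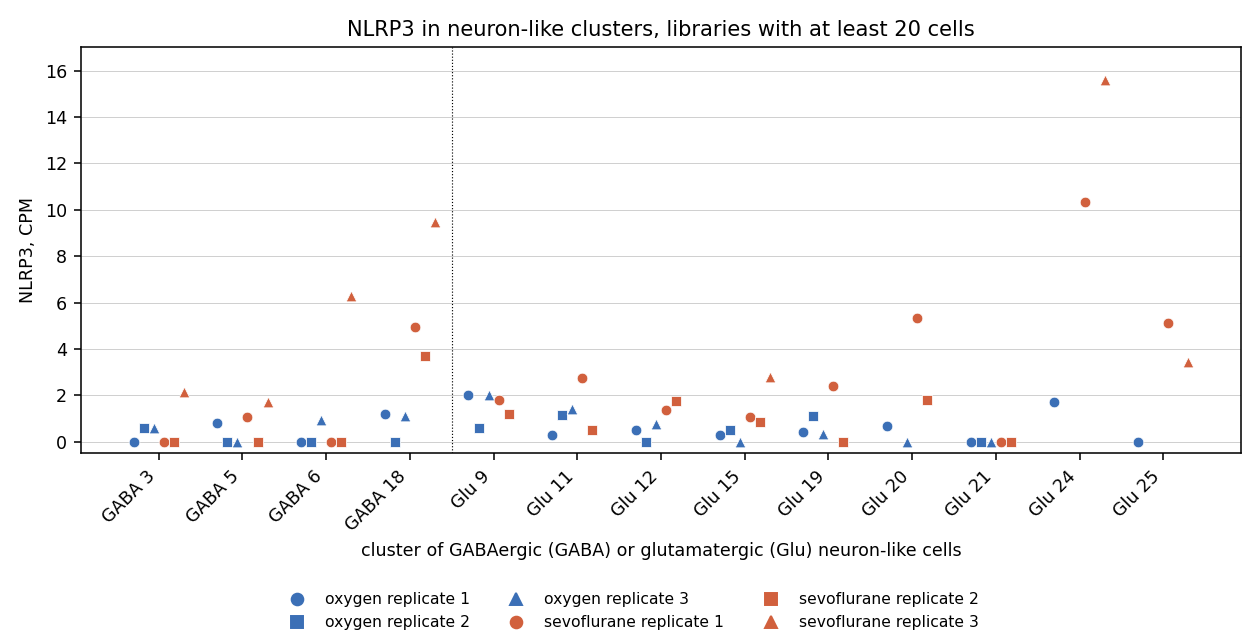
NLRP3 level in CPM (y axis) in each GABAergic and glutamatergic neuron-like cluster (x axis), with 1 point per library holding at least 20 cells of that cluster; colours and symbols mark treatment and replicate. Sevoflurane replicate 3 reaches 15.6 CPM in cluster 24 and 9.49 CPM in cluster 18, and no oxygen library is above 2.04 CPM.

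IL1B, the cytokine whose precursor the inflammasome cuts, was nearly silent. Its UMIs in microglia-like cells were 2, 5 and 1 in the oxygen libraries and 0, 16 and 0 in the sevoflurane libraries. All 16 sevoflurane UMIs thus came from replicate 2, where 13 of 273 cells carried them and no cell had more than 3. The level there was 35.2 CPM (95% counting interval 20.1 to 57.2), while the other 5 libraries lay between 0 and 8.31 CPM. The exact permutation p for the treatments was 1.0, and without sevoflurane replicate 2 the difference in mean level turned from 6.996 to -4.75 CPM. Glutamatergic neuron-like cells had 6 IL1B UMIs, in 4 cells of the same library, and border macrophage-like cells had 1 UMI in oxygen replicate 1 and 1 in sevoflurane replicate 3. Endothelial-like, mural-like, astrocyte-like and GABAergic neuron-like cells had 0. Intervals and limits from counts cover counting error only.

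IL18, the second inflammasome cytokine, was at 21.8, 63.1 and 23.6 CPM in microglia-like cells with oxygen and at 31.1, 77.1 and 25.9 CPM with sevoflurane. Replicate 2 was the highest of both treatments and the groups overlapped. The log2 fold change was 0.29 ± 0.51 (edgeR adjusted p = 0.963), and it turned to -0.31 without sevoflurane replicate 2. Up to 7 IL18 UMIs were found in a single cell, and 107 of the 1837 cells (5.82%) had at least 1, against 0.0513% of OPC-like cells.

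Outside microglia-like cells, IL18 was seen in border macrophage-like and fibroblast-like cells. Border macrophage-like cells had 7, 0 and 1 UMIs with oxygen and 3, 4 and 4 with sevoflurane, and 13 of the 54 cells (24.1%) had at least 1. Their mean level over 6 libraries was 134 ± 100.3 CPM, against 40.4 ± 23.6 CPM in microglia-like cells, with ranges that overlapped (0 to 260 and 21.8 to 77.1 CPM). Fibroblast-like cells, which line vessels and meninges, had 12, 5 and 3 UMIs (29.5, 40.2 and 19.3 CPM) with oxygen and 6, 0 and 3 (24.4, 0 and 18.4 CPM) with sevoflurane. Their 24 cells with a UMI were 5.53% of the class. In glutamatergic neuron-like cells 31 UMIs were spread over 17890 cells. The IL18 level of each sevoflurane library there was above that of each oxygen library (0.121 ± 0.0123 against 0.301 ± 0.235 CPM, exact permutation p = 0.1, adjusted 0.267). Among the genes tested in this class, 12.9% were higher in every sevoflurane library. Of the 22 UMIs with sevoflurane, 12 were in replicate 3, and the difference of 0.180 CPM became 0.0451 CPM without it. In astrocyte-like cells, with 8 UMIs in each group, the levels were 0.806 ± 0.713 and 1.62 ± 0.145 CPM, also without overlap and with the same p-values, where 6.15% of the genes tested were higher in every sevoflurane library.

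TNF was the rarest member. Its 11 UMIs comprised 5 in glutamatergic neuron-like cells, 4 in microglia-like cells, 1 in border macrophage-like cells and 1 in oligodendrocyte-like cells. The microglia-like libraries had 1, 0 and 0 UMIs with oxygen and 2, 1 and 0 with sevoflurane, so both groups were at or under 3 UMIs and no fold change is given. A difference in TNF was not detectable at this depth: a count of 3 in a microglia-like library corresponds to 3.73 to 8.64 CPM.

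Within microglia-like cells, 54.3% of the cells had no UMI of any member, 36.1% had UMIs of 1 member, 8.76% of 2 and 0.708% of 3, and 1 cell had UMIs of 4. Of the 460 cells with an NLRP3 UMI, 94 also had one of NFKB1, 31 one of IL18, 21 one of RELB and 3 one of IL1B. The 94 were 20.4% of the NLRP3 cells and 26.2% of the 359 NFKB1 cells, and the 31 were 29.0% of the 107 IL18 cells. Of all 1837 cells, 19.5% had an NFKB1 UMI and 25.04% an NLRP3 UMI, near these shares. Both cytokines, IL1B and IL18, were found together in 2 cells, of 21 cells with IL1B and 107 with IL18. These shares rise with a cell's depth and carry no test.

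**Figure D3:**
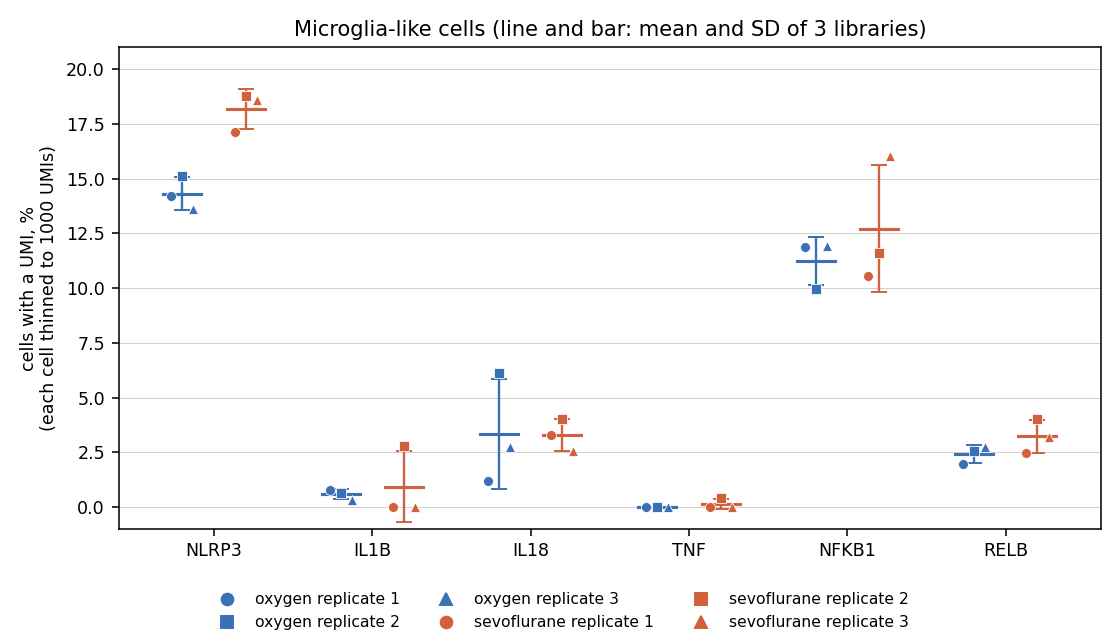
Microglia-like cells carrying a UMI of each gene, as a percentage of those with at least 1000 UMIs, after each was thinned to 1000 UMIs (y axis), for the 6 genes (x axis); points are libraries, and lines with bars give the mean and SD of the 3 libraries of a treatment. The NLRP3 shares do not overlap (13.6% to 15.1% with oxygen, 17.1% to 18.8% with sevoflurane), and those of IL18, NFKB1 and RELB do.

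NFKB1, the p105/p50 subunit, had its highest mean level among the 7 classes with at least 20 cells in every library in endothelial-like cells (410 ± 508 CPM over 6 libraries). This mean rests on 1 library: the medians of endothelial-like and oligodendrocyte-like cells were 195 and 192 CPM. The next means were those of oligodendrocyte-like (195 ± 31.1), microglia-like (132 ± 12.49), OPC-like (103 ± 13.9), GABAergic neuron-like (98.9 ± 3.71), astrocyte-like (91.5 ± 13.03) and glutamatergic neuron-like cells (89.7 ± 25.2). Of these neighbours, oligodendrocyte-like and microglia-like cells had ranges apart, and all others overlapped. Microglia-like cells had 120, 138 and 126 CPM with oxygen and 132, 154 and 124 CPM with sevoflurane (log2 0.11 ± 0.18, edgeR adjusted p = 0.962). The groups overlapped, and the spread of the 6 libraries was small. GABAergic neuron-like cells had 95.8, 96.0 and 96.2 CPM with oxygen and 105, 101 and 99.2 CPM with sevoflurane. These values did not overlap, and 12.9% of the genes tested in this class were higher in every sevoflurane library. After TMM scaling the log2 fold change of NFKB1 was 0.02 ± 0.09 (edgeR adjusted p = 0.961).

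In astrocyte-like cells NFKB1 was at 98.7, 91.2 and 95.4 CPM with oxygen and 78.0, 110 and 75.6 CPM with sevoflurane, overlapping groups with log2 -0.12 ± 0.16 (edgeR adjusted p = 0.942). In glutamatergic neuron-like cells it was at 94.1, 66.8 and 78.7 CPM with oxygen and 80.0, 80.6 and 138 CPM with sevoflurane. The high value was again replicate 3. The log2 fold change of 0.21 ± 0.24 (edgeR adjusted p = 0.874) turned to -0.09 without that library.

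Endothelial-like cells, the lining of the brain's vessels, differed most between libraries. NFKB1 was at 390, 156 and 122 CPM with oxygen and at 234, 1428 and 130 CPM with sevoflurane. Sevoflurane replicate 2 had 279 UMIs in 47 of its 53 cells (88.7%), with up to 17 in a cell, while the other 5 libraries had 425 UMIs in 221 of 691 cells. After thinning to 1000 UMIs, 71.2% of its cells kept an NFKB1 UMI against 10.8% to 23.8% in the others. The groups overlapped, and the log2 fold change of 1.57 ± 0.88 did not pass (edgeR unadjusted p = 0.110, adjusted p = 1.00; DESeq2 unadjusted p = 0.0432, adjusted p = 1.00). It passed in edgeR with no filter on low counts (log2 1.41), and without sevoflurane replicate 2 it was -0.30.

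RELB, the subunit of the alternative arm, was highest, among the 7 classes with at least 20 cells in every library, in oligodendrocyte-like (55.1 ± 8.13 CPM) and endothelial-like cells (45.8 ± 43.2 CPM), then in microglia-like cells (26.5 ± 7.74 CPM). The ranges of these 3 classes overlapped from one to the next. Astrocyte-like cells followed at 13.02 ± 2.91 CPM, apart from microglia-like cells, and OPC-like, glutamatergic and GABAergic neuron-like cells stood at 8.82, 7.98 and 6.92 CPM with overlapping ranges. In microglia-like cells RELB was at 21.8, 29.9 and 26.7 CPM with oxygen and 23.6, 39.6 and 17.3 CPM with sevoflurane (log2 0.05 ± 0.37, edgeR adjusted p = 0.994), groups that overlapped. The astrocyte-like value was log2 0.08 ± 0.29 (edgeR adjusted p = 0.984), that of GABAergic neuron-like cells -0.14 ± 0.24 (0.870) and that of glutamatergic neuron-like cells -0.34 ± 0.27 (0.798). After thinning, the glutamatergic share of cells with a RELB UMI was 0.839 ± 0.00706% with oxygen and 0.659 ± 0.0553% with sevoflurane. These shares were lower in all sevoflurane libraries, at the smallest possible exact permutation p of 0.1 (adjusted 0.433). The levels of RELB itself overlapped there, at 6.59, 11.5 and 7.88 CPM with oxygen and 8.53, 6.41 and 6.99 CPM with sevoflurane, where 4.13% of the genes of this class were lower in every sevoflurane library.

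RELB in endothelial-like cells followed the order seen for NFKB1 at its upper end. It was at 68.3, 37.6 and 15.4 CPM with oxygen and 12.8, 123 and 17.5 CPM with sevoflurane. Sevoflurane replicate 2 was highest and oxygen replicate 1 next for both genes, and the groups overlapped (log2 0.24 ± 0.90, edgeR adjusted p = 1.00; -1.29 without sevoflurane replicate 2). Border macrophage-like cells had 0 RELB UMIs in all 3 oxygen libraries and 0, 7 and 1 in the sevoflurane libraries, the 7 in 3 of 8 cells of replicate 2. Mural-like and fibroblast-like RELB was also highest in sevoflurane replicate 2, at 101 and 88.6 CPM, but from 1 and 3 UMIs.

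**Figure D4:**
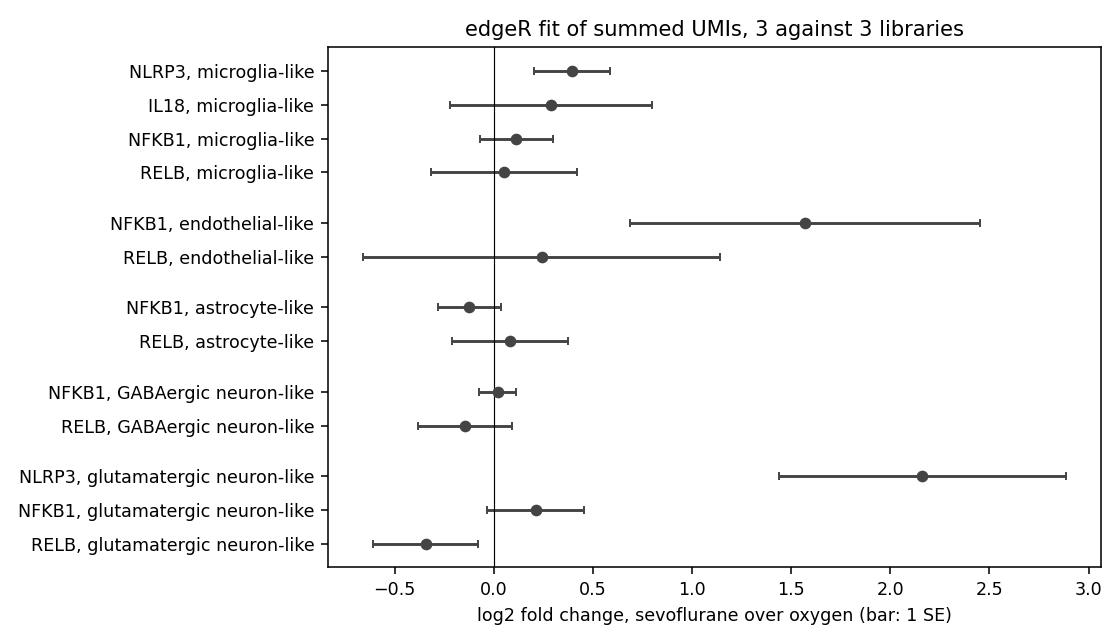
Log2 fold change of sevoflurane over oxygen (x axis) with 1 standard error for each member that could be fitted in a class (y axis), from edgeR on summed UMIs of 3 against 3 libraries. The largest values are 2.16 for NLRP3 in glutamatergic neuron-like and 1.57 for NFKB1 in endothelial-like cells, each resting mostly on 1 sevoflurane library, and none passes the adjusted test.

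The other genes of the pathway were taken from 7 lists of 96 genes, of which 90 were in the file: inflammasome components, receptors and antagonists of IL-1, IL-18 and TNF, NF-kB subunits, NF-kB inhibitors and feedback genes, the IKK complex with its adaptors, inflammatory targets and immediate early genes. Enough counts were present for 30 of them in microglia-like, 34 in endothelial-like, 34 in astrocyte-like, 45 in GABAergic and 57 in glutamatergic neuron-like cells. None was called in either direction by edgeR or DESeq2. At an unadjusted edgeR p under 0.05 there were 2, 3, 4, 4 and 7, beside the shares of all genes given above. Positive fold changes were found for 18 of 30, 23 of 34, 14 of 34, 18 of 45 and 29 of 57. The median log2 fold change of the lists lay between -0.10 and 0.12 in the 5 classes, and that of all genes tested between -0.00 and 0.03.

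In microglia-like cells the inflammasome components with the most UMIs besides NLRP3 were TXNIP, P2RX7, AIM2 and BRCC3. P2RX7, the ATP-gated channel whose opening triggers NLRP3, was at 177 ± 13.8 CPM with oxygen and 181 ± 23.8 CPM with sevoflurane (log2 0.06 ± 0.18). TXNIP, which binds NLRP3, had 169 ± 36.4 and 215 ± 31.8 CPM (log2 0.37 ± 0.21, edgeR adjusted p = 0.855). REL, the c-Rel subunit, had 67.5, 58.2 and 61.2 CPM with oxygen and 90.7, 136 and 97.9 CPM with sevoflurane. Its groups did not overlap, and 5.0% of the 7601 genes tested in this class were higher in every sevoflurane library. REL had the lowest adjusted p of the lists in this class (log2 0.81 ± 0.23, edgeR unadjusted p = 0.00562, adjusted p = 0.448). RELA, the p65 subunit, had 12.3 ± 3.80 and 23.8 ± 10.5 CPM from 55 UMIs, too few for the fit. Among the other genes at an unadjusted edgeR p under 0.05, CASP1, the caspase of the inflammasome, had a log2 fold change of 1.13 ± 0.39 in GABAergic neuron-like cells (edgeR adjusted p = 0.308), and 1.35 without sevoflurane replicate 3. IL18R1, a chain of the IL-18 receptor, had -1.10 ± 0.30 in glutamatergic neuron-like cells (edgeR adjusted p = 0.531), and -0.88 without that library. NLRP1, another inflammasome sensor, had -0.57 ± 0.22 in microglia-like and 0.57 ± 0.25 in astrocyte-like cells (edgeR adjusted p = 0.628 and 0.730). These 3 genes and those named next were singled out after their values were seen. NR4A1, an immediate early gene, was lower with sevoflurane in GABAergic neuron-like cells, at the lowest adjusted p of all lists (edgeR, 0.147). In endothelial-like cells it was at 195, 243 and 165 CPM with oxygen and 125, 107 and 95.0 CPM with sevoflurane. The groups did not overlap (log2 -0.80 ± 0.27, edgeR unadjusted p = 0.0156, adjusted p = 0.9996), a pattern not counted over all genes. FOS and FOSL2 met the unadjusted limit in glutamatergic neuron-like cells.

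Endothelial-like cells of sevoflurane replicate 2 carried many of these genes at high levels besides NFKB1 and RELB. Of the 54 listed genes and members with at least 40 UMIs in the class, 24 (44.4%) had a highest library at least 2 times the next, and in all 24 it was this library. Over the whole transcriptome this library stood out by the same rule for 433 of 8088 genes (5.35%), and any library for 549 (6.79%). The rule was set after these values were seen, so the count is a description of 1 library of 53 cells and carries no test, and the genes named from it were chosen in the same way.

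The genes concerned covered adhesion molecules, chemokines, survival genes, the feedback inhibitors of NF-kB and the immediate early genes FOS and FOSL2. FOS was at 179 CPM in sevoflurane replicate 2 against 3.88 to 16.1 CPM in the other libraries, and FOSL2 at 353 CPM against 46.4 to 103 CPM. The other immediate early genes with at least 40 UMIs, JUN, DUSP1 and NR4A1, were highest in oxygen replicate 2. BIRC3, an inhibitor of apoptosis that acts in TNF receptor signalling, was at 3101 CPM in sevoflurane replicate 2 (606 UMIs in 47 cells) and at 11.6 to 161 CPM in the other 5 libraries. SELE, the E-selectin to which leukocytes attach, was at 1504 CPM (28 of 53 cells) against 0 to 54.6 CPM. VCAM1 and ICAM1, further adhesion molecules, were at 977 and 322 CPM, with next highest libraries at 92.7 and 44.97 CPM. SOD2, the mitochondrial superoxide dismutase, was at 896 CPM in 42 cells against 28.9 CPM in the next library.

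The chemokines CXCL10 and CXCL2 were at 496 and 481 CPM, with 97 of the 98 CXCL10 UMIs of the class in this library. TNFAIP3, the A20 feedback inhibitor, was at 353 CPM against 3.43 to 26.8 CPM, and NFKBIA, which holds NF-kB in the cytosol, at 466 CPM against 63.5 to 103 CPM. IL1R1, the signalling receptor of IL-1, was at 117, 237 and 192 CPM with oxygen and at 296, 1320 and 399 CPM with sevoflurane. Its groups did not overlap, and the share of all genes of this class with that pattern was not computed. The log2 fold change of 2.02 ± 0.61 did not pass (edgeR unadjusted p = 0.0090, adjusted p = 0.9996). IL1R2, the decoy receptor of IL-1, had 165 UMIs in 14 cells of sevoflurane replicate 2 and 0 in the 691 endothelial-like cells of the other libraries. Of the 24 genes, 9 had sevoflurane replicate 1 and 6 oxygen replicate 1 as the next highest library. BIRC3 gave the largest fitted change of the lists (log2 4.47 ± 1.596, edgeR unadjusted p = 0.0211), with an adjusted p of 1.00.

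**Figure D5:**
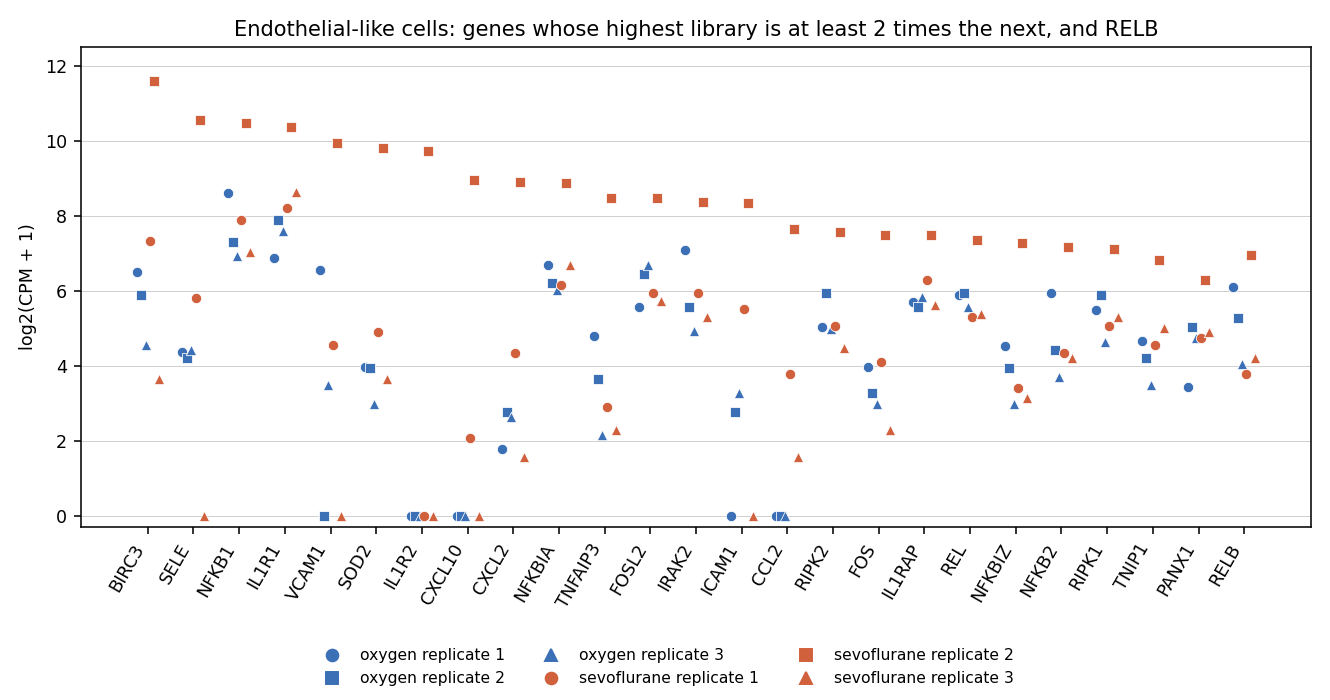
Level as log2(CPM + 1) (y axis) in endothelial-like cells of the 24 listed genes whose highest library is at least 2 times the next, and of RELB (x axis); each point is 1 library, with colour for treatment and symbol for replicate. Sevoflurane replicate 2 is the highest point for all 25 genes, from 3101 CPM for BIRC3 to 76.8 CPM for PANX1.

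This library's endothelial-like cells also differed in markers. Their summed endothelial markers were at 4467 CPM, against 6103 to 7320 CPM with oxygen and 5252 and 5393 CPM in the other sevoflurane libraries. MECOM (834 CPM), PECAM1 (154 CPM), ABCB1 (281 CPM) and KDR (56.3 CPM) were lowest in this library. VWF (128 CPM) and CLDN5 (46.1 CPM) were highest in it, and FLT1, EMCN, CDH5 and TEK lay within the range of the others. Summed astrocyte markers of these cells were at 1540 CPM against 185 to 442 CPM, of which 906 CPM were SLC1A3, a glutamate transporter. SLC1A2 (353 CPM), ALDH1L1 (138 CPM) and GJA1 (66.5 CPM) were also highest in this library, with the next libraries at 244, 19.4 and 41.8 CPM. UMIs of SLC1A3, SLC1A2, ALDH1L1 and GJA1 lay in 17, 13, 4 and 7 of its 53 endothelial-like cells. AQP4, a defining astrocyte marker, was at 0, as it was in sevoflurane replicate 3. GFAP at 30.7 CPM lay within the 17.5 to 36.0 CPM of the others, and GLI3 and RFX4 also lay within the range of the others. Summed microglia markers were at 1392 CPM against 827 to 1210 CPM. The part of these markers in the result was not tested.

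The same 24 genes were read in the microglia-like cells of sevoflurane replicate 2. It was the highest library for 11 of them. Of the 7601 genes with enough counts for the test in microglia-like cells, it was highest for 20.5%. Several of the 24 had too few counts for that test, and VCAM1 and CXCL10 had no UMI in this class, so the 2 values are from unlike gene sets. In microglia-like cells BIRC3 was highest in oxygen replicate 2, and SELE and IL1R1 in sevoflurane replicate 1. Sevoflurane replicate 2 was highest for 14 of the 24 in fibroblast-like, 8 in mural-like, 8 in border macrophage-like and 7 in astrocyte-like cells. The shares of all genes were not computed for those classes. Sevoflurane replicate 2 held only 13 fibroblast-like, 6 mural-like and 8 border macrophage-like cells, so a few UMIs can make it the highest library there. Among the genes highest in this library in microglia-like cells, ICAM1 was at 48.4 CPM against 0 to 3.32 CPM. NFKBIZ, an inducible member of the inhibitor family, was at 68.2 CPM against 1.66 to 14.4 CPM, and SOD2 at 30.8 CPM against 3.14 to 14.4 CPM. Sevoflurane replicate 2 was also the library with 16 of the 24 IL1B UMIs of microglia-like cells.

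Whether a member responded differently in microglia-like cells than elsewhere was tested on the difference of log2 CPM between 2 classes within each library (limma over 5889 to 7507 genes). None of the members or other genes passed in any of the 4 comparisons (0.0% called). The response of NLRP3 was lower in microglia-like than in glutamatergic neuron-like cells by a log2 difference of -1.26 ± 0.63 (limma unadjusted p = 0.0802, adjusted p = 0.920), and by -0.49 without sevoflurane replicate 3. For NFKB1 the difference from endothelial-like cells was -0.81 ± 0.80 (limma adjusted p = 0.959), and 0.17 without sevoflurane replicate 2. All other differences of NFKB1 and RELB lay between -0.14 and 0.30.

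The genes with the most similar profile to each member were sought among 9697 genes over 42 profiles, the 7 classes with at least 20 cells in every library times 6 libraries, by Pearson r of log2(CPM + 1). For NLRP3 these were HERC2 (r = 0.959), SAMSN1 (0.959) and DMKN (0.954), and for IL18 BTLA (0.944), DAPP1 (0.943) and IL21R (0.939). NFKB1 lay nearest to GBE1 (0.860), CMPK1 (0.835) and NAA15 (0.833), and RELB to MYO1E (0.876), PICALM (0.849) and SELENOP (0.848). IL1B lay nearest to RGS1 (0.784), TNFSF8 (0.778) and RAB3IL1 (0.774), and TNF to CYBB (0.780), ACY3 (0.750) and TNFSF8 (0.729). Profiles of a library share its preparation and those of a class its cells, so these are descriptions, and those of IL1B and TNF rest on few UMIs.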

How the data were processed

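The authors deposited filtered matrices of UMI counts, 1 per library and not normalized, which Cell Ranger 6.1.1 wrote, per the file headers; CASAVA 1.8 and Seurat are also named in the submitters' processing notes. No build of the genome is named: it is not given in the sources used here. All 6 genes, the gene lists and the marker lists were chosen with earlier results of these data known, and the limits for naming clusters were set after the clusters had been seen.

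Barcodes with at least 500 UMIs and 200 genes were used. Scrublet was run per library with the median of the automatic thresholds, since the threshold of sevoflurane replicate 2 marked only 0.150% of its barcodes; 4.49% to 5.93% were removed. Cells were clustered with scanpy 1.11.5 (2000 variable genes, 30 principal components, 15 neighbours, Leiden resolution 1). A cluster was named from its marker score (at least 0.25, the second class at most 0.55 times that), with at least 3 markers in 10% of its cells; 9 of 35 clusters, with 2813 cells, stayed unnamed.

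UMIs were summed per class and library and tested over all genes with edgeR 4.0.16 (quasi-likelihood, filterByExpr, TMM, R 4.3.3), with DESeq2 1.42.0 as the alternative. Classes with at least 20 cells in every library were compared. Members below the filter and shares of cells were tested with an exact two-sided permutation test over 20 arrangements, and differences of response with limma 3.58.1. The fits were tested on simulated data. Besides the 6 genes, the text names list genes that were called (none) or were among the 4 of a list with the highest mean CPM in microglia-like cells, and the 3 genes nearest to each member among those with at least 10 CPM in a class; exceptions are stated. Replicate numbers were not used as pairs in the main tests, and the labels do not say whether they pair the libraries.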

Additional observations from a re-analysis of the deposited data

How the results depend on the processing

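The count of 0 members called held in all 5 classes under DESeq2, the replicate block, each left-out library, Leiden resolution 0.5, clustering without the listed genes and doublets kept; with no filter on low counts 1 was called (NFKB1, endothelial-like). The numbers of all genes called, 8, 0, 2, 16 and 1 (microglia-like, endothelial-like, astrocyte-like, GABAergic, glutamatergic), were 114, 241, 163 and 245 in the first 4 with no filter. With DESeq2 they were 22, 1, 37, 203 and 196, and with the replicate block 1 in microglia-like cells and 0 in the other 4. They were 1 (GABAergic) and 0 (glutamatergic) at resolution 0.5 and 0 (GABAergic) with doublets kept. With 1 library left out they ran from 1 to 11, 0 to 0, 0 to 4, 0 to 37 and 0 to 0.

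The log2 fold change of RELB in microglia-like cells turned to -0.0855 at resolution 0.5 and -0.0857 without the listed genes, and in GABAergic cells to 0.0087 with doublets kept. Shares turned for RELB in microglia-like (-0.999 points) and GABAergic cells (0.0511) when not thinned, and for NFKB1 in GABAergic cells when thinned to 500 UMIs (-0.0276). With 1 library left out, log2 fold changes spanned 0 for IL18 (-0.31 to 0.98) and RELB (-0.28 to 0.21) in microglia-like cells, NFKB1 (-0.30 to 2.27) and RELB (-1.29 to 0.91) in endothelial-like cells, RELB in astrocyte-like cells (-0.091 to 0.37), and NFKB1 in GABAergic (-0.012 to 0.043) and glutamatergic cells (-0.089 to 0.35). RELB in GABAergic cells stayed at -0.23 to -0.073. Level differences did so for IL1B (-4.75 to 12.9 CPM, microglia-like; 0 to 0.102, glutamatergic), NLRP3 (-0.244 to 1.38, astrocyte-like) and IL18 (-0.0347 to 0.654, GABAergic). Share differences, in points, did so for IL18 (-1.13 to 1.34) and NFKB1 (-0.175 to 2.57) in microglia-like cells, NFKB1 (-1.12 to 27.7) and RELB (-2.94 to 6.67) in endothelial-like cells, and NFKB1 in astrocyte-like (-1.14 to 0.220), GABAergic (-0.173 to 0.296) and glutamatergic cells (-0.117 to 2.79). RELB shares stayed at 0.419 to 1.18 (microglia-like) and -0.631 to -0.149 (GABAergic). Response differences of microglia-like cells did so for NFKB1 against endothelial-like (-1.48 to 0.17), GABAergic (-0.038 to 0.14) and glutamatergic cells (-0.33 to 0.23), and for RELB against endothelial-like (-0.53 to 0.71), astrocyte-like (-0.31 to 0.061), GABAergic (-0.22 to 0.39) and glutamatergic cells (-0.11 to 0.50). The cause was not tested. Endothelial-like cells numbered 53 to 191 per library, and IL1B and TNF had 44 and 11 UMIs in all.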

Other observations

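Members were also found in clusters that carried markers of more than 1 class and were left unnamed. Cluster 10 (105 cells, with markers of microglia and neurons) had 43 NLRP3 UMIs, 33.7 CPM. Cluster 23 (74 cells, with markers of microglia and oligodendrocytes) had 31 NLRP3 UMIs, 105 CPM. Neither entered a comparison.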
